A study of Rattus norvegicus with 9 samples.

Results

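The Toll-like receptors and the NF-kB cascade below them were followed through 9 RNA sequencing libraries of rat striatum. The members were 37 genes named by symbol, and 36 of them were found among the 22890 gene IDs of the count files. Ticam1, the adaptor TRIF, was not analysed here. Tab1, found with 9 counts over all libraries, was removed with the genes of low count, which left 35 members tested among 14274 genes. The EDB group, named for the drug edaravone dexborneol (the radical scavenger edaravone joined with dexborneol), the ICH group, rats with intracerebral hemorrhage, and the Sham group held 3 libraries each. The labels give striatal tissue for every library. It is not stated there whether the EDB rats were given a hemorrhage too, nor are strain, age, sex, dose, time after surgery or the way the hemorrhage was made, so EDB was set against both ICH and Sham. Whether each library is a separate animal is not stated either, and p-values therefore measure only the spread between these samples, part of which may be technical.

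Toll-like receptors sense microbial products and molecules released from damaged cells. Tlr1, Tlr2, Tlr4, Tlr5 and Tlr6 act at the cell surface, and Tlr3, Tlr7, Tlr8 and Tlr9 bind nucleic acids in endosomes. Ligand binding recruits adaptors such as Myd88, which assemble Irak kinases, and these lead through the TAK1 complex to the IkB kinases. The kinases mark IkB proteins for destruction, which frees NF-kB dimers to enter the nucleus. Several NF-kB and IkB genes are themselves NF-kB targets, so that the pathway feeds back on itself. Microglia and invading macrophages are known as the main carriers of Toll-like receptors in injured brain, and astrocytes and endothelium carry some of them.

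Total counts ran from 16290179 to 16561053 in EDB, from 15032157 to 17659936 in ICH and from 14658110 to 15790208 in Sham. Levels below are CPM, read counts scaled to a common library size with TMM factors, in the order of library 1, 2 and 3 of each group. They are not divided by gene length, so they were compared between libraries and not between genes. Changes are log2 fold changes ± SE (3 libraries per group). The words rise and fall are kept for genes at an adjusted p under 0.05 from edgeR's quasi-likelihood test over all genes tested. Of the 9 libraries, 3 stood apart from the rest of their groups: Sham 2 along the second principal component, EDB 3 by choroid plexus transcripts (summed CPM of 6 markers 7344 in EDB 3, against 29.1 to 75.9 in the other libraries) and ICH 1 by the Y-linked genes Kdm5d and Eif2s3y, with no count in it (200 to 460 counts of the pair in each other library). ICH 1 was therefore not a repeat of the material in ICH 2 or ICH 3. Whether ICH held both sexes is not stated, and the part of sex in its spread was not tested. Liver markers (5 of 6 found) summed to 180 CPM in Sham 1 and 178 CPM in Sham 3, against 2.85 to 28.5 CPM in the other libraries. A fit without Sham 2 therefore rests, for Sham, on the libraries with liver transcripts alone. Erythroid markers (2 of 4 found) summed to 257 to 1269 CPM in EDB, 65.8 to 1010 CPM in ICH and 516 to 699 CPM in Sham. Neuronal markers (8 genes found) summed to 6908 to 7652 CPM in EDB, 4766 to 6055 CPM in ICH and 6333 to 10107 CPM in Sham. The libraries thus carried the labelled tissue's neurons.

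In ICH against Sham, 20 of the 35 tested members rose and 15 were not called. Over all genes tested, 18.7% were called, 11.4% higher and 7.3% lower. All ICH libraries lay above all Sham libraries for 23 members, as for 20.2% of all genes. The median log2 fold change was 0.90 over the tested members and 0.01 over all genes tested. In bulk tissue, a change in the number of cells of a type and a change in RNA per cell cannot be told apart. By role, 8 of 9 Toll-like receptors and both co-receptors rose, and 10 of the 24 tested members below them, a difference that was not tested. Tlr5 and Tlr8 among the 8 passed the filter on low counts only through the ICH libraries, and Tlr3, Tlr4, Tlr5 and Tlr6 lost their call without ICH 1. In EDB against ICH, 1 member, Cd14, fell and 34 were not called, where 0.687% of all genes were called, 0.631% lower and 0.056% higher. All EDB libraries lay below all ICH libraries for 18 members, as for 13.6% of all genes. The median was -0.61 over the tested members and -0.03 over all genes tested, and the fitted change lay below 0 in all 35, as it did in 53.8% of all genes. That count was 31 without ICH 2, the lowest of the 18 alternatives, and 32 without EDB 3, ICH 1 and Sham 2. In EDB against Sham, 6 members rose and 29 were not called, where 7.66% of all genes were called, 4.95% higher and 2.71% lower, with medians of 0.43 and -0.01. The comparisons share libraries, so their values stand side by side and are not independent of each other. By DESeq2 the members called were 20, 7 and 9 in these comparisons, and by limma-voom 20, 1 and 4. Without EDB 3, ICH 1 and Sham 2 the counts were 13, 0 and 5. The calls lost there in ICH against Sham were those of Nfkbie, Nfkbiz, Tab2, Ticam2, Tlr4, Tlr5 and Tlr6 (adjusted p from 0.0635 to 0.187 by edgeR).

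**Figure D1:**
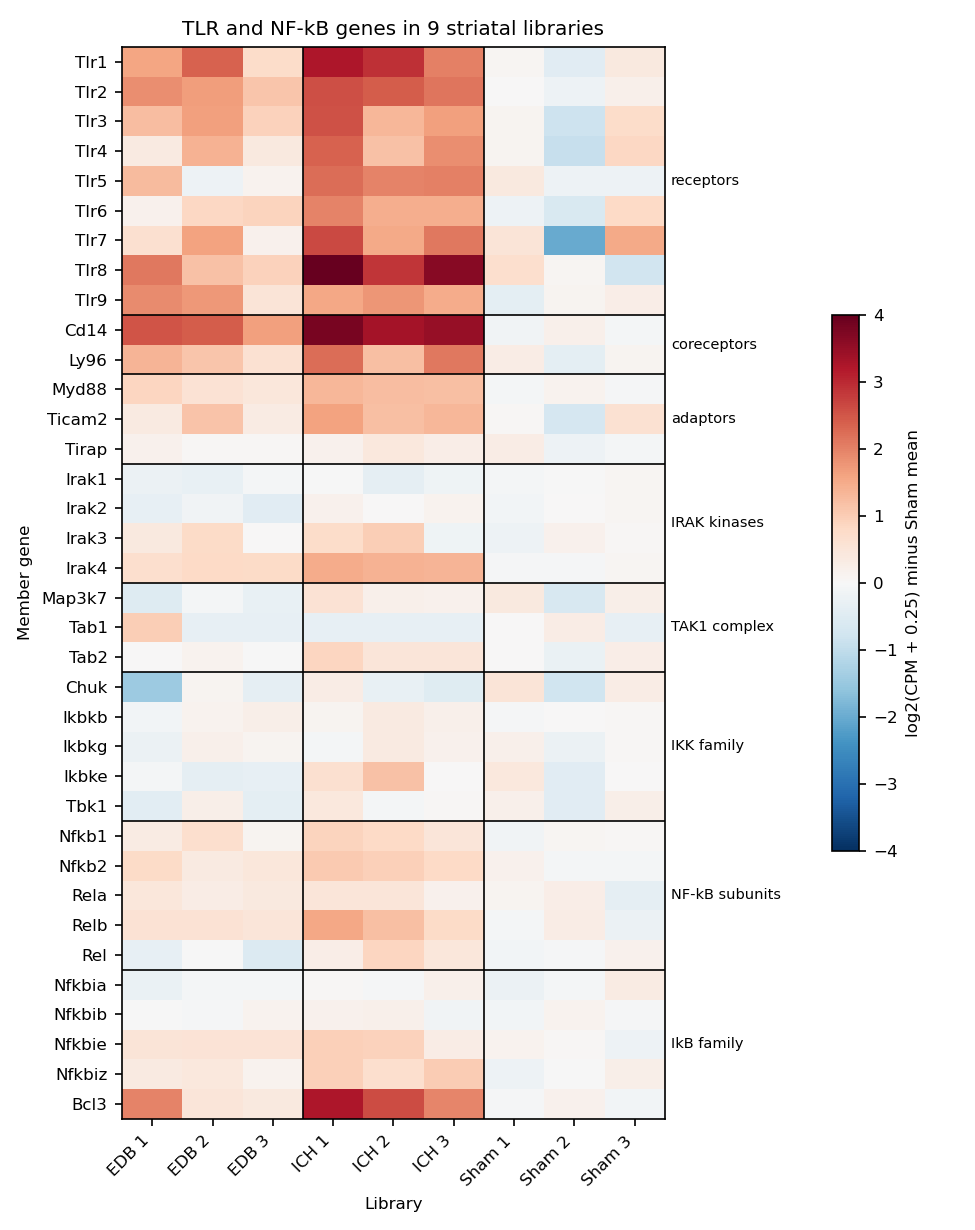
Each cell is log2(CPM + 0.25) of 1 member in 1 library minus the mean of the 3 Sham libraries, with members in rows by role and libraries in columns (EDB, ICH, Sham). Tlr8 and Cd14 show the darkest colours in the ICH libraries, while Irak1, Nfkbia and Nfkbib stay near the Sham level in all 9.

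Tlr2, which pairs with Tlr1 or Tlr6 to sense lipoproteins, was the receptor with the smallest p in ICH. Its level was 21.5, 19.1 and 12.7 CPM in EDB, 35.9, 32.5 and 26.2 CPM in ICH, and 5.81, 4.99 and 6.73 CPM in Sham. The 3 groups did not overlap, with EDB between ICH and Sham in every library. Tlr2 rose in ICH against Sham (2.43 ± 0.23, adjusted p = 6.36e-05) and in EDB against Sham (1.60 ± 0.23, adjusted p = 0.00199), and both calls held under all 18 alternatives. In EDB against ICH its change was -0.83 ± 0.21, adjusted p = 0.101 by edgeR, and it was called by DESeq2 (adjusted p = 0.0181). Its partner Tlr1 had 2.72, 4.86 and 1.44 CPM in EDB, 9.21, 7.30 and 3.83 CPM in ICH, and 0.812, 0.479 and 1.06 CPM in Sham. All ICH and EDB libraries lay above all Sham libraries, whereas ICH 3 lay within the EDB range. Tlr1 rose in ICH (3.10 ± 0.53, adjusted p = 0.00222) and in EDB against Sham (1.93 ± 0.53, adjusted p = 0.0497), where the call was lost with scaling by library size (adjusted p = 0.0502), with limma-voom (0.158), with the 6 compared libraries alone (0.0794), with the replicate block (0.0953) and without any 1 of 7 libraries (EDB 1, EDB 2, ICH 1, ICH 2, Sham 1, Sham 2 or Sham 3; adjusted p up to 0.141). Tlr6 ran over 1.92 to 3.31 CPM in EDB, 5.02 to 7.35 CPM in ICH and 1.03 to 3.11 CPM in Sham, and rose in ICH against Sham (1.64 ± 0.42, adjusted p = 0.0200), a call lost without ICH 1, Sham 1 or Sham 2 (adjusted p up to 0.0763).

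Tlr4, the receptor for lipopolysaccharide, was sparse. Its counts were 14, 34 and 14 in EDB, 72, 27 and 53 in ICH, and 11, 3 and 18 in Sham. Levels in EDB overlapped those of both other groups, and Sham 2 was the lowest library. Tlr4 rose in ICH (2.01 ± 0.62, adjusted p = 0.0449), and the call was lost without EDB 1, ICH 1, ICH 3, Sham 1 or Sham 2 (adjusted p up to 0.155), with the 6 compared libraries alone and with the replicate block. Its co-receptors were clearer. Cd14, which hands lipopolysaccharide to the receptor, had 8.35, 7.91 and 4.50 CPM in EDB, 20.9, 15.1 and 16.8 CPM in ICH, and 1.12, 1.50 and 1.20 CPM in Sham. All ICH libraries lay above all EDB libraries, and these above all Sham libraries. Cd14 rose in ICH (3.78 ± 0.30, adjusted p = 2.88e-05) and in EDB against Sham (2.43 ± 0.30, adjusted p = 0.00107), in each case under all 18 alternatives. It was the member that fell in EDB against ICH (-1.34 ± 0.26, adjusted p = 0.0490). That call rested on the shared estimate of the spread and on single libraries: the adjusted p was from 0.0353 to 0.165 without 1 library, and only the fit without Sham 2 kept it, while it was 0.0585 with the 6 compared libraries alone and 0.0864 with the replicate block. Without EDB 3, ICH 1 and Sham 2 together it was 0.0750. The call was kept by DESeq2, by limma-voom and with the other scalings and filters on low counts. Ly96, the MD-2 protein that binds lipid A beside Tlr4, stood at 5.01, 4.14 and 2.88 CPM in EDB, 9.33, 4.47 and 8.64 CPM in ICH, and 2.25, 1.30 and 1.98 CPM in Sham. It rose in ICH (2.01 ± 0.37, adjusted p = 0.00345), under all 18 alternatives, and ICH 2 was within the EDB range.

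Among the endosomal receptors, Tlr8, a sensor of single-stranded RNA, reached the filter level in 2 EDB, 3 ICH and 0 Sham libraries. It thus entered the test only through the ICH libraries, which favours a higher level there. It stood at 1.61, 0.719 and 0.563 CPM in EDB, 6.82, 2.83 and 5.13 CPM in ICH, and 0.437, 0.205 and 0 CPM in Sham. All ICH libraries lay above the EDB and Sham libraries, and all EDB libraries above the Sham libraries. ICH held 257 counts of Tlr8 in all and Sham 10, giving a ratio of 22.3 (95% counting interval 11.9 to 47.1), and EDB held 47. It rose in ICH against Sham (4.44 ± 0.74, adjusted p = 0.00201), under all 18 alternatives, and had -2.35 ± 0.63, adjusted p = 0.106 in EDB against ICH, which DESeq2 called (adjusted p = 0.00757). Tlr9, which senses CpG DNA, had 6.93, 6.29 and 2.56 CPM in EDB, 5.42, 6.35 and 5.18 CPM in ICH, and 1.25, 1.85 and 2.12 CPM in Sham. EDB 1 and EDB 2 reached the ICH level or passed it, and EDB 3 lay nearer to Sham. Tlr9 rose in ICH (1.70 ± 0.39, adjusted p = 0.0111) and in EDB against Sham (1.60 ± 0.39, adjusted p = 0.0307), the second lost without EDB 1, EDB 2, ICH 2, Sham 1 or Sham 3 (adjusted p up to 0.121), by limma-voom (adjusted p = 0.0793), with the 6 compared libraries alone (0.0737) and with the replicate block (0.0703). Its change in EDB against ICH was -0.10 ± 0.36, adjusted p = 0.916, with the sign turned to 0.23 without EDB 3.

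The double-stranded RNA sensor Tlr3 ran over 6.63 to 11.1 CPM in EDB, 8.87 to 21.0 CPM in ICH and 1.78 to 5.73 CPM in Sham and rose in ICH (1.88 ± 0.43, adjusted p = 0.0116), a call lost without ICH 1 (adjusted p = 0.0518). Tlr7, which like Tlr8 senses single-stranded RNA, was the receptor that was not called in any comparison. Its levels were 3.53, 7.07 and 2.44 CPM in EDB, 14.6, 6.67 and 10.2 CPM in ICH, and 3.19, 0.342 and 6.58 CPM in Sham. Its Sham counts were 51, 5 and 93, and the change in ICH was 1.64 ± 0.71, adjusted p = 0.140. Tlr5, the flagellin receptor, had 7, 0 and 1 counts in EDB, 19, 14 and 17 in ICH, and 2, 0 and 0 in Sham. A count of 0 allows up to 3 counts, or 0.212 CPM in the Sham 3 library. Tlr5, like Tlr8, entered the test only through the ICH libraries. The ratio of summed counts between ICH and Sham was 21.7 (95% counting interval 5.70 to 184.1). Its call in ICH (adjusted p = 0.0226) was lost without ICH 1, ICH 2, ICH 3, Sham 2 or Sham 3 (adjusted p up to 0.0775). These limits hold for counting error alone, because copies made by PCR are not independent molecules.

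**Figure D2:**
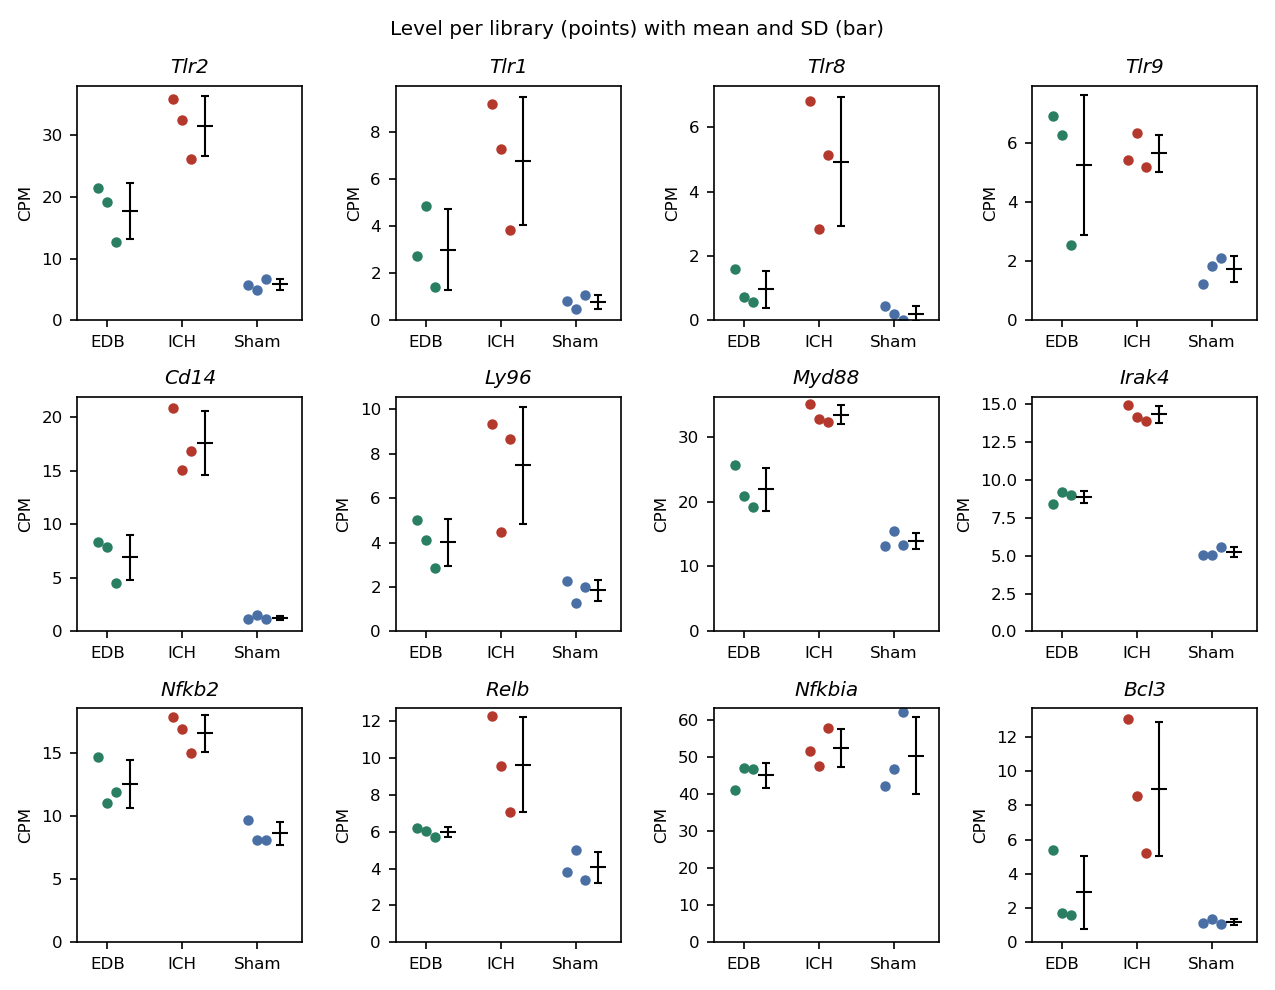
CPM per library for 12 members, with points for EDB, ICH and Sham libraries and a bar for the mean and SD of each group (n = 3). Cd14 reads 6.92 ± 2.11 CPM in EDB, 17.6 ± 2.97 CPM in ICH and 1.28 ± 0.201 CPM in Sham, whereas ICH and Sham overlap for Nfkbia.

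Of the adaptors, Myd88, which serves every Toll-like receptor but Tlr3, showed tight groups. It stood at 25.6, 20.9 and 19.2 CPM in EDB, 35.0, 32.8 and 32.2 CPM in ICH, and 13.1, 15.4 and 13.4 CPM in Sham. The 3 groups did not overlap. Myd88 rose in ICH (1.25 ± 0.15, adjusted p = 0.000223), under all 18 alternatives. It also rose in EDB against Sham (0.65 ± 0.15, adjusted p = 0.0250), a call lost without EDB 1, ICH 2, Sham 1 or Sham 3 (adjusted p up to 0.111), with the 6 compared libraries alone (adjusted p = 0.0684) and with the replicate block (0.0575). It had -0.61 ± 0.15, adjusted p = 0.0920 in EDB against ICH (adjusted p = 0.0162 by DESeq2). Ticam2, the TRAM adaptor that links Tlr4 to TRIF, ran over 2.19 to 3.96 CPM in EDB, 4.22 to 5.60 CPM in ICH and 0.958 to 2.69 CPM in Sham. Its rise in ICH (1.41 ± 0.40, adjusted p = 0.0327) was lost without Sham 1, Sham 2 or any ICH library (adjusted p up to 0.102), and with the replicate block. Tirap, which bridges Tlr2 and Tlr4 to Myd88, was not called, at 0.29 ± 0.23 for ICH against Sham, with -0.22 ± 0.23 in EDB against ICH.

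Irak4, the kinase that starts signalling from the Myd88 complex, was the 1 Irak gene that rose. Its levels were 8.41, 9.23 and 9.003 CPM in EDB, 15.0, 14.2 and 13.9 CPM in ICH, and 5.06, 5.06 and 5.59 CPM in Sham. Within each group the libraries lay close together, and the groups did not overlap. Irak4 rose in ICH (1.45 ± 0.17, adjusted p = 0.000212), under all 18 alternatives. It rose in EDB against Sham (0.76 ± 0.17, adjusted p = 0.0228), lost without EDB 1, EDB 2, EDB 3, ICH 2, Sham 1 or Sham 3 (adjusted p up to 0.0845), with the 6 compared libraries alone (adjusted p = 0.0789), with the replicate block (0.0667) and without EDB 3, ICH 1 and Sham 2 (0.0681). It had -0.69 ± 0.17, adjusted p = 0.0920 in EDB against ICH (adjusted p = 0.0131 by DESeq2). Irak1, the substrate of Irak4, had -0.17 ± 0.12 for ICH against Sham, with -0.02 ± 0.12 in EDB against ICH. Irak2, a related kinase, had 0.10 ± 0.16 and -0.42 ± 0.17. Its levels were 9.96, 11.3 and 9.003 CPM in EDB, 14.1, 12.6 and 13.7 CPM in ICH, and 11.6, 12.7 and 13.3 CPM in Sham, so that all EDB libraries lay below the other 6. Irak3, also called IRAK-M and known to restrain the cascade, had 0.60 ± 0.33 and -0.18 ± 0.32, with ICH 3 at 4.43 CPM, within the Sham range of 4.37 to 5.68 CPM. None of the 3 was called in any comparison.

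In the TAK1 complex, Tab2, which binds ubiquitin chains and brings in the kinase, rose in ICH against Sham (0.61 ± 0.16, adjusted p = 0.0192). It ran over 62.6 to 69.3 CPM in EDB, 87.6 to 114 CPM in ICH and 52.1 to 75.0 CPM in Sham, so that EDB lay below ICH and overlapped Sham. The ICH call was lost without ICH 1 or Sham 1 (adjusted p up to 0.0748), and its change in EDB against ICH was -0.56 ± 0.15, adjusted p = 0.115 by edgeR and was called by DESeq2 (adjusted p = 0.0328). Map3k7, the TAK1 kinase itself, had 0.27 ± 0.24, adjusted p = 0.508 for ICH against Sham, with -0.63 ± 0.24, adjusted p = 0.233 in EDB against ICH. Tab1, its activator, had counts of 6, 0 and 0 in the EDB libraries, 0 in each ICH library and 1, 2 and 0 in the Sham libraries. No change was computed for it. The annotation behind the counts is not given, so these counts do not show that the transcript was absent.

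The IkB kinases and their relatives were not called in ICH against Sham, at an unadjusted p under 0.05 or by DESeq2 or limma-voom either. The catalytic subunits Chuk and Ikbkb had -0.23 ± 0.42 and 0.23 ± 0.13, and the regulatory subunit Ikbkg had 0.15 ± 0.23. Tbk1, which phosphorylates interferon regulatory factors, had 0.12 ± 0.25, and its relative Ikbke had 0.68 ± 0.36. Chuk varied widely within groups, over 3.96 to 12.2 CPM in EDB, 7.94 to 13.9 CPM in ICH and 6.29 to 16.2 CPM in Sham. In EDB against ICH, Ikbke had the largest fitted change of the 5, -0.99 ± 0.36, adjusted p = 0.211, with all EDB libraries below all ICH libraries. None of the 5 was called in EDB against ICH or EDB against Sham by edgeR, DESeq2 or limma-voom, with 1 and 0 at an unadjusted p under 0.05.

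**Figure D3:**
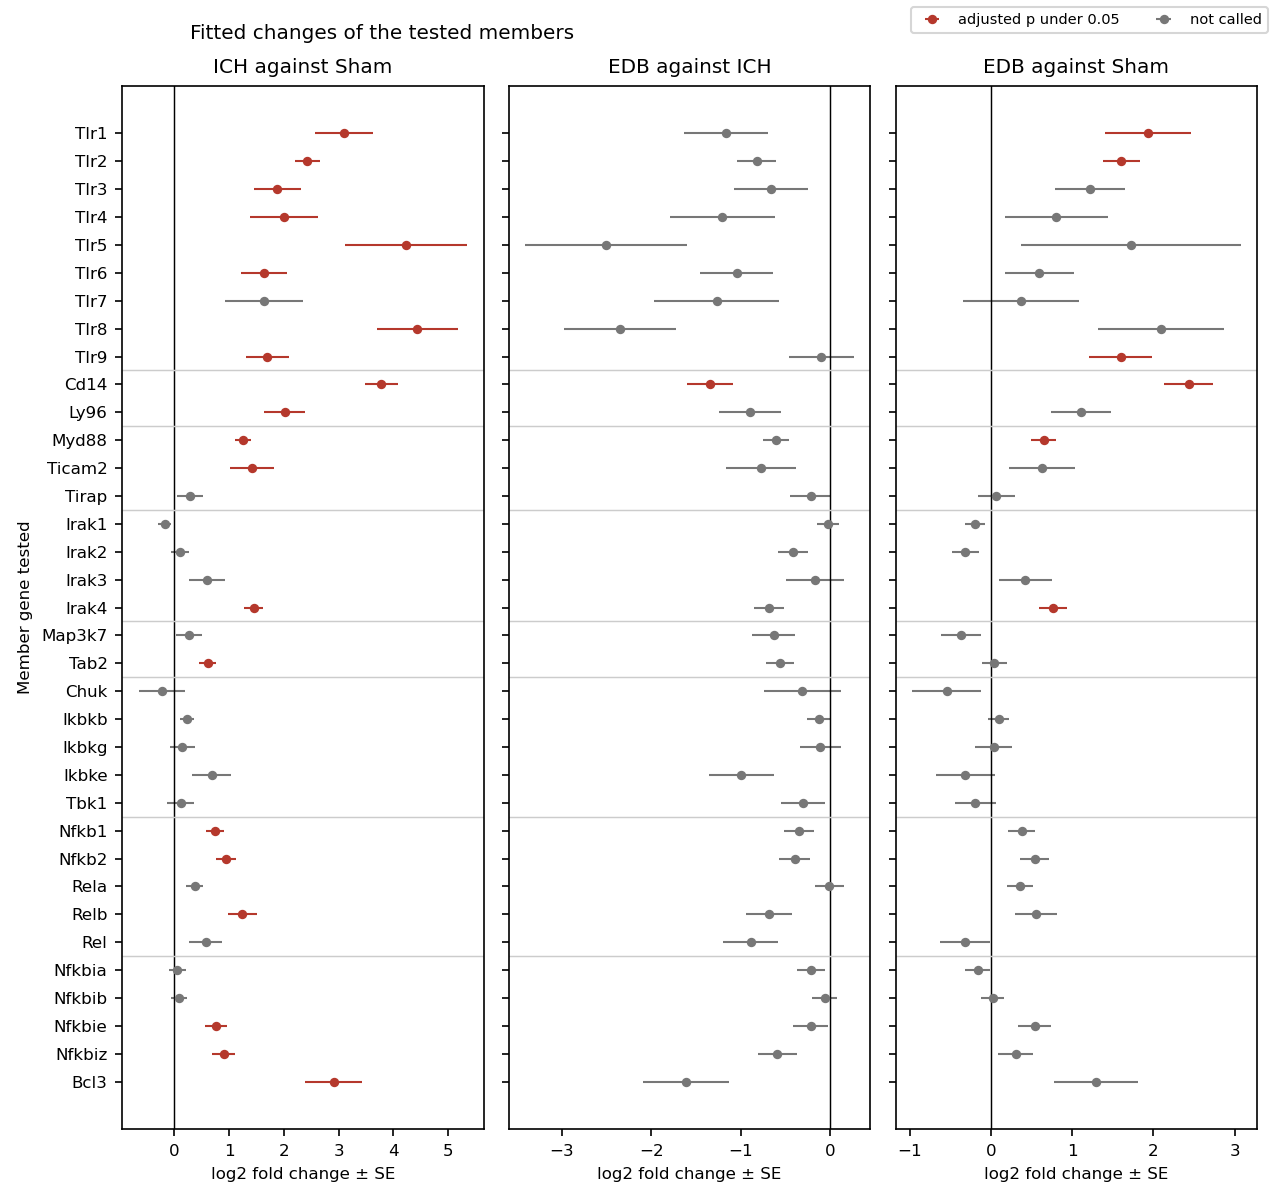
Fitted log2 fold change ± SE of the 35 tested members, by role, in ICH against Sham, EDB against ICH and EDB against Sham. Coloured points passed an adjusted p of 0.05: 20, 1 and 6 members.

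Of the 5 NF-kB subunits, 3 rose in ICH and 2 were not called. Relb, a subunit of the non-canonical dimer, had 6.19, 6.05 and 5.69 CPM in EDB, 12.2, 9.56 and 7.07 CPM in ICH, and 3.81, 4.99 and 3.40 CPM in Sham. The groups did not overlap. Relb rose in ICH (1.24 ± 0.26, adjusted p = 0.00726), as did Nfkb2, which encodes its p100 and p52 partner (0.94 ± 0.18, adjusted p = 0.00427), both under all 18 alternatives. Nfkb2 stood at 14.7, 11.1 and 11.9 CPM in EDB, 17.9, 16.9 and 15.0 CPM in ICH, and 9.69, 8.14 and 8.14 CPM in Sham, again with no overlap between groups. Nfkb1, which encodes p105 and p50, ran over 35.8 to 53.2 CPM in EDB, 47.3 to 62.04 CPM in ICH and 30.4 to 35.6 CPM in Sham and rose in ICH (0.74 ± 0.17, adjusted p = 0.0105), a call lost without Sham 1 (adjusted p = 0.0568). Rela, the p65 subunit, was at 62.3, 56.0 and 59.0 CPM in EDB, 63.3, 64.0 and 51.6 CPM in ICH, and 49.1, 54.2 and 35.2 CPM in Sham. All EDB libraries lay within the ICH range. The changes of Rela were 0.37 ± 0.16, adjusted p = 0.147 for ICH against Sham, with -0.01 ± 0.16 in EDB against ICH. Rel, the c-Rel subunit of lymphoid and myeloid cells, had 0.57 ± 0.30, adjusted p = 0.224 in ICH and -0.89 ± 0.30, adjusted p = 0.189 in EDB against ICH, where all EDB libraries lay below all ICH libraries.

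Of the 5 IkB family members, 3 rose in ICH and 2 were not called. Bcl3, an atypical nuclear IkB that binds p50 and p52 dimers, had 5.38, 1.74 and 1.63 CPM in EDB, 13.1, 8.56 and 5.24 CPM in ICH, and 1.12, 1.37 and 1.06 CPM in Sham. All ICH and EDB libraries lay above all Sham libraries, and EDB 1 alone of the EDB libraries reached the ICH range. Bcl3 rose in ICH (2.91 ± 0.52, adjusted p = 0.00296), under all 18 alternatives, and had -1.62 ± 0.48, adjusted p = 0.139 in EDB against ICH (adjusted p = 0.0340 by DESeq2) and 1.29 ± 0.52, adjusted p = 0.162 in EDB against Sham. Nfkbiz, another nuclear IkB, rose in ICH (0.90 ± 0.22, adjusted p = 0.0149), and so did Nfkbie, the IkB epsilon inhibitor (0.76 ± 0.20, adjusted p = 0.0218). Those calls were lost without ICH 1, ICH 3 or Sham 1 for Nfkbiz (adjusted p up to 0.0682) and without ICH 1, ICH 2 or Sham 3 for Nfkbie (adjusted p up to 0.101). Nfkbia, the classical inhibitor IkB alpha, stood at 41.3, 47.1 and 46.8 CPM in EDB, 51.6, 47.7 and 57.8 CPM in ICH, and 42.2, 46.8 and 62.2 CPM in Sham. ICH and Sham overlapped, while all EDB libraries lay below all ICH libraries. Its changes were 0.06 ± 0.16, adjusted p = 0.858 for ICH against Sham, with -0.22 ± 0.16, adjusted p = 0.524 in EDB against ICH. Nfkbib, IkB beta, had 0.09 ± 0.15 and -0.07 ± 0.15.

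Promoters of 6 members are shown because NF-kB genes that rose and Nfkbia, which was not called, carry kappaB-like letters near the gene start. RefSeq windows on GRCr8, 250 bases before to 50 after the gene start, were found for 30 of the 37 members, and the counts themselves rest on another build, Rnor_6.0. The strict motif, GGGA and TTCC parted by any 2 bases, was searched on both strands and found in 4 of the 30, namely Nfkb1, Nfkb2, Nfkbia and Nfkbiz, and in 1.3% of 33469 promoters of the same length. The degenerate 10-base kappaB consensus, which contains every match of the strict motif, was found in 10 of the 30 and in 7.51% of all promoters. The other 6 with the consensus were Tlr2, Irak3, Ikbkg, Rel, Nfkbie and Bcl3. Capitals mark consensus matches on either strand, and each sequence is written 5′ to 3′ on the gene's strand.
Nfkbia (GRCr8 chr6:78597023-78597322, minus strand): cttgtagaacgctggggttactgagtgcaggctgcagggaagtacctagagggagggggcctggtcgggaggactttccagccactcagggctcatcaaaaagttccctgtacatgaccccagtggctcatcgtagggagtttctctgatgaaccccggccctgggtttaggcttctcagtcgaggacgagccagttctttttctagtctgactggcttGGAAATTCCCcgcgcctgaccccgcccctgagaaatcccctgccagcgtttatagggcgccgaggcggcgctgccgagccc
Nfkb1 (GRCr8 chr2:226805413-226805712, minus strand): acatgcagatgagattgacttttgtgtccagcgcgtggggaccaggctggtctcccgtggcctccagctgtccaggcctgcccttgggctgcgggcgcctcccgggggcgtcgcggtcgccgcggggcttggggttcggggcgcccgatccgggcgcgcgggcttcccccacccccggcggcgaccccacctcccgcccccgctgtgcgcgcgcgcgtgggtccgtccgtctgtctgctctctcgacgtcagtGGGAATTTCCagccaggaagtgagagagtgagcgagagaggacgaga
Nfkb2 (GRCr8 chr1:255108124-255108423, plus strand): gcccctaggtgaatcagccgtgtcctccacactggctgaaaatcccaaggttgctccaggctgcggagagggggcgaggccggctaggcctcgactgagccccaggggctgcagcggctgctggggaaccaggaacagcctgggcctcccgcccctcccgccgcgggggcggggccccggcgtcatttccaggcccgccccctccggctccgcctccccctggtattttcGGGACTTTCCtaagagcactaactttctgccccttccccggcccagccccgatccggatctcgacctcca
Nfkbiz (GRCr8 chr11:58251471-58251770, plus strand): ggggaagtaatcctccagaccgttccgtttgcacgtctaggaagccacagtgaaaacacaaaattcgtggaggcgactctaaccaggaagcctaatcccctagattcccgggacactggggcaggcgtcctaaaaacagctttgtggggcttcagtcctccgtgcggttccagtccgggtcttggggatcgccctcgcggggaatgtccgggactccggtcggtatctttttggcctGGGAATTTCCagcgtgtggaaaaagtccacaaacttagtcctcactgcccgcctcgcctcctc
Bcl3 (GRCr8 chr1:88613506-88613805, minus strand): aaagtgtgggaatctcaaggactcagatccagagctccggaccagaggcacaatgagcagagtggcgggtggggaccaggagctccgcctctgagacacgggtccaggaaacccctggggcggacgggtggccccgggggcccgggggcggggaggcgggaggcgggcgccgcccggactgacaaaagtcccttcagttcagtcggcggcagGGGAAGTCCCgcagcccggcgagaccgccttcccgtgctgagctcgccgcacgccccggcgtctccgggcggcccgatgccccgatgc
Tlr2 (GRCr8 chr2:171504508-171504807, minus strand): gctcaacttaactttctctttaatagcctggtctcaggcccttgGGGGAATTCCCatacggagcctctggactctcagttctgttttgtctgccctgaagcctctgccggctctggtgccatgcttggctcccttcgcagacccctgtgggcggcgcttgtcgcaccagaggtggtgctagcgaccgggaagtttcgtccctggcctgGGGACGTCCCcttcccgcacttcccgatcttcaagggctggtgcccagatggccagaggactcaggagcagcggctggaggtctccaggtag
In Nfkbia the match lay at positions -31 to -22 from the gene start, on the opposite strand, in Nfkb2 at -20 to -11, in Nfkbiz at -13 to -4 and in Nfkb1 at 4 to 13. Bcl3 had a consensus match at -38 to -29. Tlr2 had a pair of overlapping matches from -206 to -196 and another at -42 to -33. Of the 4 genes with the strict motif, 3 rose in ICH and Nfkbia was not called, where 20 of the 35 tested members rose. Among the other 6 with the consensus, Tlr2, Nfkbie and Bcl3 rose in ICH and Irak3, Ikbkg and Rel were not called. A link between motif and change was not tested. A match describes letters and does not show binding.

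Markers of myeloid cells moved with these genes. All 12 markers of the list rose in ICH against Sham, and 11 rose in EDB against Sham. Their summed level was 2953, 2775 and 1677 CPM in EDB, 3382, 3698 and 3849.8 CPM in ICH, and 709, 729.5 and 809 CPM in Sham, and no marker of the list was at 0 in any library. The mean was 4.86 times as high in ICH as in Sham and 0.678 times as high in EDB as in ICH, where edgeR called none of the 12, 10 had an unadjusted p under 0.05, DESeq2 called 5 and limma-voom none. Neutrophil markers (10 genes) summed to 22.2 to 39.0 CPM in EDB, 56.2 to 70.7 CPM in ICH and 9.25 to 11.7 CPM in Sham, most of it from Csf3r (18.4 to 36.7 CPM in EDB, 49.5 to 59.1 CPM in ICH and 7.12 to 8.78 CPM in Sham), with Retnlg, Mpo and Elane at 0 to 2 counts in every library. T and B cell markers (10 genes) summed to 4.26 to 5.25 CPM in EDB, 4.47 to 5.45 CPM in ICH and 3.68 to 4.45 CPM in Sham. Astrocyte markers (6 genes) summed to 4731 to 5461 CPM in EDB, 7305 to 7598 CPM in ICH and 2057 to 2729.8 CPM in Sham, most of it in EDB and ICH from Gfap (2804 to 3769.5 CPM in EDB, 4544 to 5165 CPM in ICH and 403 to 544 CPM in Sham). Of the 6, Gfap and Gja1 rose in ICH against Sham and 4 were not called. In EDB against Sham Gfap rose, Slc1a2 fell and 4 were not called, at a median of -0.17. Their part in the members' changes was not tested.

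Members were also expressed per 1000 counts of the summed myeloid markers, as a description with no test. Most of that sum came from Csf1r, C1qa, C1qb, C1qc and Cx3cr1 (means of 862, 646, 586, 481 and 334 CPM in ICH). The 12 markers changed by 1.66 (Cx3cr1) to 3.29 (Tyrobp) in ICH against Sham. The scaled values therefore depend on the markers chosen and are not levels per myeloid cell. On that scale 3 of the 35 tested members, Cd14, Tlr8 and Tlr5, were higher in every ICH library than in every Sham library, 23 were lower in every ICH library and 9 overlapped. Of all genes tested, 1% were higher and 92.2% lower in this way, since the myeloid sum itself was higher in ICH, and the 23 therefore say nothing particular of the members. Tlr8 and Tlr5 were in the test only through their ICH levels, which leaves Cd14 as the one of the 3 not chosen so. Cd14 stood at 2.83, 2.85 and 2.68 in EDB, 6.17, 4.08 and 4.36 in ICH, and 1.59, 2.06 and 1.49 in Sham. The 3 groups did not overlap for Cd14, with ICH highest. Tlr8 stood at 0.545, 0.259 and 0.336 in EDB, 2.02, 0.766 and 1.33 in ICH, and 0.617, 0.281 and 0 in Sham. All ICH libraries lay above the other 6. Tlr2 stood at 7.29, 6.89 and 7.57 in EDB, 10.6, 8.80 and 6.80 in ICH, and 8.19, 6.84 and 8.31 in Sham. Its groups overlapped throughout, at a log2 ratio of 0.17 between the ICH and Sham means, where the log2 ratio by CPM was 2.43. Myd88 was lower in ICH than in Sham on this scale, at 8.65, 7.54 and 11.4 in EDB, 10.3, 8.86 and 8.37 in ICH, and 18.5, 21.1 and 16.5 in Sham. EDB and ICH overlapped, both below Sham. In EDB against ICH, the same 3 genes, Cd14, Tlr8 and Tlr5, were lower in every EDB library, Tirap, Rela and Nfkbib were higher in every EDB library, and 29 overlapped, with a median log2 ratio of 0.01 over the 35. Of all genes tested, 1.6% were lower and 44.8% higher in every EDB library on this scale.

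**Figure D4:**
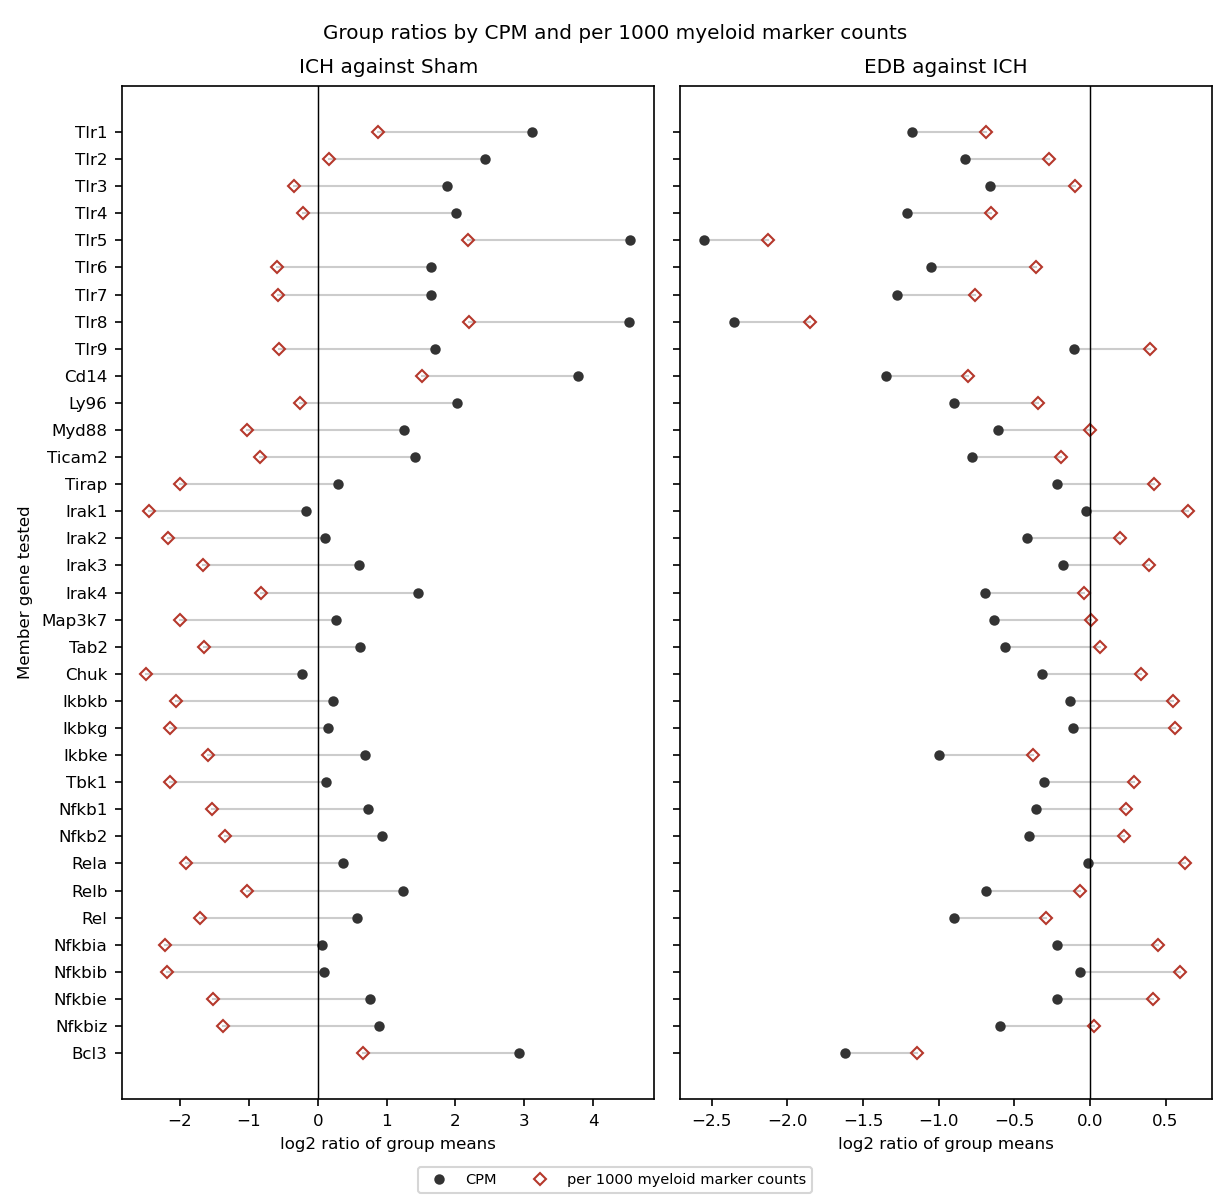
Log2 ratio of group means for the 35 tested members by CPM (filled circles) and per 1000 myeloid marker counts (open diamonds), for ICH against Sham (left) and EDB against ICH (right). Cd14, Tlr8 and Tlr5 keep ratios of 1.51, 2.20 and 2.19 in ICH against Sham after the scaling, Tlr8 and Tlr5 having entered the test only through ICH, while most other members lie below 0, as most genes do on this scale.

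Other genes of the pathway were read from lists made beside the members. Of 26 tested genes that work with the receptors and adaptors, 8 rose and 1 fell in ICH against Sham (11.4% and 7.3% of all genes tested), at a median of 0.33 (0.01 over all genes tested). Unc93b1, which carries the endosomal receptors to their compartment, had 77.3, 73.1 and 43.6 CPM in EDB, 103, 118 and 97.7 CPM in ICH, and 14.2, 17.0 and 15.4 CPM in Sham. All EDB and ICH libraries lay above all Sham libraries. It rose in ICH (2.77 ± 0.21, adjusted p = 2.42e-05) and in EDB against Sham (2.06 ± 0.21, adjusted p = 0.000467). The adaptor Pik3ap1, which ties Toll-like receptors to phosphoinositide signalling, rose by 2.42 ± 0.21 in ICH and the kinase Btk by 2.83 ± 0.29. Ly86, the MD-1 partner of the receptor-like Cd180, rose by 2.87 ± 0.33, and the transcription factor Irf5 by 1.50 ± 0.18. Traf3, a ubiquitin ligase of the TRIF branch chosen here after its value was seen, was the gene that fell (-0.70 ± 0.15, adjusted p = 0.00892), and it also fell in EDB against Sham (-0.75 ± 0.15, adjusted p = 0.0135). In EDB against Sham 7 of the 26 rose (4.95% of all genes tested). In EDB against ICH edgeR called none of them, with 6 at an unadjusted p under 0.05, 3 called by DESeq2 and 1 by limma-voom.

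Of 17 tested negative regulators, 5 rose in ICH (11.4% of all genes tested) and 12 were not called, at a median of 0.37 (0.01 over all genes tested). Socs3, which curbs cytokine receptor signalling, had 8.04, 4.68 and 3.88 CPM in EDB, 22.7, 18.8 and 17.9 CPM in ICH, and 2.81, 2.39 and 2.76 CPM in Sham. The ICH libraries lay above all others. Socs3 rose in ICH (2.89 ± 0.29, adjusted p = 7.14e-05) and fell in EDB against ICH (-1.84 ± 0.27, adjusted p = 0.0244), the second lost without EDB 2, EDB 3, ICH 1 or ICH 2 (adjusted p up to 0.0880). In EDB against Sham 3 of the 17 rose (4.95% of all genes tested), namely Ptpn6, Inpp5d and Socs3. The call of Socs3 was lost without any 1 library but EDB 3. The phosphatases Ptpn6 (3.05 ± 0.26) and Inpp5d (1.54 ± 0.17), the adaptor Dok1 (1.47 ± 0.28) and Il1rl1, the interleukin-33 receptor (2.19 ± 0.44), were the others that rose. Tnfaip3, the A20 enzyme that removes ubiquitin from this cascade and a textbook NF-kB target, was not called (0.37 ± 0.17, adjusted p = 0.161) and is named outside the rule for naming genes.

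Of 10 tested genes for endogenous Toll-like receptor ligands, 5 rose in ICH (11.4% of all genes tested), at a median of 0.92 (0.01 over all genes tested). They were the matrix proteins Bgn (0.96 ± 0.18, adjusted p = 0.00423), Vcan (1.31 ± 0.39, adjusted p = 0.0376) and Fn1 (0.88 ± 0.27, adjusted p = 0.0409) and the calcium-binding S100a8 (2.40 ± 0.71, adjusted p = 0.0383) and S100a9 (2.02 ± 0.62, adjusted p = 0.0441), which also stand in the neutrophil list. S100a8 reached the filter level in 1 EDB, 3 ICH and 0 Sham libraries, so that it was tested only through the group where it is high. Bgn kept its call under all 18 alternatives. Each of the others lost it without 5 to 7 single libraries, ICH 1 and each Sham library among them (adjusted p up to 0.166). The list had no call in EDB against ICH or EDB against Sham by edgeR, DESeq2 or limma-voom, with 4 and 2 genes at an unadjusted p under 0.05, though without the 3 libraries that stood apart 1 gene was called in EDB against ICH.

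Among 20 tested NF-kB target genes, 8 rose in ICH (11.4% of all genes tested) and 12 were not called, at a median of 1.10 (0.01 over all genes tested). The 12 not called had fitted changes from -0.59 (Ptgs2) to 1.40 (Il6) and are named outside the rule for naming genes. They were Tnf, Il1b, Il6, Nos2, Ptgs2, Vcam1, Birc3, Sod2, Gadd45b, Traf1, Tnfaip2 and Ltb. Of these, Tnf, Il1b, Il6 and Nos2 held only 40, 37, 32 and 35 summed counts in ICH. Complement factor B, Cfb, had 198, 155 and 119 CPM in EDB, 217, 239 and 202 CPM in ICH, and 58.9, 54.8 and 59.9 CPM in Sham, with all EDB and ICH libraries above all Sham libraries. Cfb rose in ICH (1.92 ± 0.17, adjusted p = 4.86e-05) and in EDB against Sham (1.44 ± 0.17, adjusted p = 0.000872). The co-stimulatory receptor Cd40 rose by 2.83 ± 0.33 in ICH, the adhesion molecule Icam1 by 1.34 ± 0.23 and the survival gene Bcl2a1 by 3.73 ± 0.65. The chemokine Ccl2 also rose in ICH, with 50 summed counts in EDB, 311 in ICH and 2 in Sham. Its ICH to Sham ratio was 135 (95% counting interval 37.05 to 1119). ICH 1 held 186 of the ICH counts, beside 64 in ICH 2 and 61 in ICH 3, and the fitted change ran from 6.14 to 9.60 without 1 library. Ccl2, too, entered the test only through the ICH libraries. In EDB against Sham 3 of the 20 rose (4.95% of all genes tested), namely Cfb, Cd40 and Ccl2. Cd40 lost its call without EDB 1, Sham 1 or Sham 3. Ccl2 lost it without EDB 1, EDB 2, ICH 2, Sham 1, Sham 2 or Sham 3. In EDB against ICH edgeR and limma-voom called none of the 20, with 7 at an unadjusted p under 0.05 and 3 called by DESeq2.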

How the data were processed

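Messenger RNA of rat striatum was counted per gene in 9 libraries, 3 each of EDB, ICH and Sham. The authors deposited raw read counts, 1 library per file, as whole numbers. The build Rnor_6.0 and the names cutadapt, HISAT2, HTSeq and limma appear per the submitters' processing notes. Their versions and roles, the annotation and the strand setting are not given in sources used here, so reads of overlapping, antisense or near-identical genes cannot be told apart.

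The analysis ran in edgeR 4.0.16 under R 4.3.3. Genes were filtered with filterByExpr (minimum count 10), libraries scaled by TMM, and all 9 fitted in 1 model with a mean per group (glmQLFit, robust). Groups were compared by the quasi-likelihood F test with Benjamini-Hochberg adjustment over 14274 genes. SE is the fold change divided by the square root of F. Alternatives used limma 3.58.1, DESeq2 1.42.0, other scalings and filters, the replicate number as a block, and fewer libraries. The procedure was tested on simulated data. Total counts of 14658110 to 17659936 per library set the precision, and a count of 0 allows up to 3 counts. Libraries of a group differed by more than sampling noise.

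The members, lists and rules were chosen with earlier results of these data known. Members called in any comparison were named, and of the other lists up to 5 called genes with the smallest p per comparison.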

Additional observations from a re-analysis of the deposited data

How the results depend on the processing

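Of the members called, 11 of 20 (ICH against Sham), 0 of 1 (EDB against ICH) and 2 of 6 (EDB against Sham) kept their call under all 18 alternatives. Member counts ran from 12 to 20, 0 to 1 and 2 to 6 when 1 library was left out, where all genes called ran from 1769 to 2624, 8 to 321 and 508 to 1661. Without EDB 3, ICH 1 and Sham 2 together, chosen after seeing the data, 13, 0 and 5 members were called, and 2295, 198 and 1628 genes. DESeq2 called 7 members and 696 genes in EDB against ICH (215 higher, 481 lower) and 1796 genes in EDB against Sham, and limma-voom 182 genes in EDB against ICH. With the 6 compared libraries alone, 0 members were called in EDB against ICH and 2 in EDB against Sham. With the replicate block, 18, 0 and 2 members and 2093, 58 and 801 genes were called. The labels do not say that the replicate numbers pair libraries. Same-numbered deviations correlated from -0.311 to 0.246, and not every library matched its own number best. Whether same-numbered libraries shared a batch was not tested. Scaling by library size gave a median of 0.10 over all genes for ICH against Sham and -0.105 for EDB against ICH (0.01 and -0.03 as reported), with 2008 genes higher and 691 lower beside 1628 and 1042, and left the members' directions as they were. Members below 0 numbered 2 to 4, 31 to 35 and 7 to 12 over the alternatives (2, 35 and 8 as reported), with 4 without ICH 2, 31 without ICH 2 and 12 without Sham 2. Among the members and genes named for a call, signs turned for Tlr9, EDB against ICH (-0.35 to 0.23 without 1 library, the highest without EDB 3, and 0.20 without the 3 libraries). They also turned for Tab2, EDB against Sham (-0.0760 without Sham 2 to 0.184, and -0.0472 without the 3 libraries), Tlr5, EDB against Sham (-0.43 without EDB 1 to 4.485) and Fn1, EDB against Sham (-0.19 without EDB 1 to 0.29, with -0.03 without Sham 1). None of these was called, and the cause was not tested. The filter of 1 CPM gave no value for Tlr5 and S100a8, and the 6 libraries of EDB and Sham alone gave none for Tlr5, Tlr8, S100a8 and Ccl2. Depth limits Tlr1, Tlr4, Tlr5, Tlr8, Cd14, Bcl3 and Tab1, which held under 20 counts in most Sham libraries.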

Other observations

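EDB 3 was the lowest EDB library for 19 of the 35 tested members and the highest for 5. ICH 1 was the highest ICH library for 24 of the 35, and Sham 2 the lowest Sham library for 17. Other libraries had counts as large as that of Sham 2. ICH 3 was the lowest ICH library for 17, EDB 2 the highest EDB library for 17 and Sham 3 the highest Sham library for 17. Shares over all genes were not computed, so a shift of the whole library cannot be told apart. EDB 3 also had the lowest myeloid sum of the EDB libraries, whereas ICH 1 had the lowest of the ICH libraries.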
